A study of Mus musculus with 6 samples.

Results

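Granins and the enzymes that cut prohormones were followed in RNA sequencing of isolated mouse islets. The set comprises 10 named genes, taken by symbol from a table of 34745 genes. They are the granins Chga, Chgb, Scg2, Scg3 and Vgf, the processing enzymes Pcsk1, Pcsk2 and Cpe, and the convertase-binding proteins Scg5 and Pcsk1n. The rule for the choice uses gene names and no measured value, but it was drawn up with earlier results of these data known. All 10 were found, and all 10 passed the filter of at least 1 FPKM (fragments per kilobase of transcript, scaled to library depth) in at least 2 libraries that 13233 genes passed. The islets came from C57BL/6 mice aged 8 weeks, in 3 groups of 2 libraries. WT denotes wild-type mice, KO denotes the genotype called Beta RapKO in the labels, and KO+DNMT3A denotes the same genotype in which Dnmt3a was expressed, written LvDnmt3a in the series' design. In βRapKO mice Rptor, which encodes the mTORC1 subunit Raptor, is deleted in beta cells; the driver of the deletion is not given in the sources used here. The names of the WT and KO columns also carry the word GFP, which the labels leave unexplained. Nothing in the labels says whether the libraries of a group stem from separate mice, so the p-values below measure the spread between libraries, which may be technical.

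Peptide hormones are made as larger precursors and matured inside dense-core granules. The prohormone convertases PC1/3, encoded by Pcsk1, and PC2, encoded by Pcsk2, cut the precursor at pairs of basic residues, and carboxypeptidase E, encoded by Cpe, trims the basic residues left at the new end. Scg5 encodes 7B2, a chaperone that PC2 needs to become active, and Pcsk1n encodes proSAAS, which can inhibit PC1/3. Granins are acidic proteins that condense with hormone and calcium in the granule and are themselves cut into peptides. Beta cells carry both convertases to make insulin, whereas alpha cells rely mainly on PC2 to release glucagon from proglucagon.

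The members lie on 8 chromosomes of GRCm38/mm10. Chga (ENSMUSG00000021194) spans chr12:102554969-102565028, Chgb (ENSMUSG00000027350) chr2:132781278-132795079 and Scg2 (ENSMUSG00000050711) chr1:79434669-79440120. Scg3 (ENSMUSG00000032181) spans chr9:75643189-75684056 and Vgf (ENSMUSG00000037428) chr5:137026392-137033351. Among the enzymes, Pcsk1 (ENSMUSG00000021587) spans chr13:75089826-75134861, Pcsk2 (ENSMUSG00000027419) chr2:143546156-143816285 and Cpe (ENSMUSG00000037852) chr8:64592542-64693054. Scg5 (ENSMUSG00000023236) spans chr2:113776362-113829121 and Pcsk1n (ENSMUSG00000039278) chrX:7919822-7924410. All 10 are annotated as protein coding, and the values are per gene, so they do not separate isoforms. The antisense gene Pcsk2os1 overlaps Pcsk2 and was listed at 0 to 8.37 FPKM, against 39.8 to 535 FPKM for Pcsk2. Use of strand in the counting is not stated, so reads of this pair may not be separable.

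Several granin and convertase genes are textbook targets of cyclic AMP signalling through the cyclic AMP response element TGACGTCA. RefSeq promoter windows (GRCm38.p6, 250 bases before to 50 after the start) matched 8 of the 10 members by symbol; Cpe and Vgf had no entry. The full element was present in 3 of the 8, Chgb, Scg2 and Pcsk1, against 1.79% of all 32851 windows and 3.77% of the 9336 genes tested here that had a window. The shorter core TGACGT, which the full element contains, was present in 5 of the 8 on either strand, with Chga and Scg5 added, against 13.7% of the tested genes. These matches describe letters, not binding. The stretches below are the 120 bases before the RefSeq start, printed 5′ to 3′ on the gene's own strand. They are shown because the 3 genes with the full element were also the 3 members that differed most between the libraries of WT and of KO, as described further on. Capitals mark TGACGTCA in Chgb, Scg2 and Pcsk1 and TGACGT in Chga, and Pcsk2 is shown as a member with no match in the window.
Chgb, chr2:132781522-132781641, plus strand: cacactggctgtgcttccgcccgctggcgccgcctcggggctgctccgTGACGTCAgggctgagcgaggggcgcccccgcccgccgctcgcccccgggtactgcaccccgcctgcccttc
Scg2, chr1:79440027-79440146, minus strand: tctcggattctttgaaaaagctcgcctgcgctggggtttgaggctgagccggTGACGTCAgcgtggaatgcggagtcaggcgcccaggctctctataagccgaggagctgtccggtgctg
Pcsk1, chr13:75089737-75089856, plus strand: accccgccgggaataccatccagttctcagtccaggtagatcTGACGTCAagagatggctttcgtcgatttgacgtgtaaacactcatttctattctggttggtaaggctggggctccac
Chga, chr12:102554821-102554940, plus strand: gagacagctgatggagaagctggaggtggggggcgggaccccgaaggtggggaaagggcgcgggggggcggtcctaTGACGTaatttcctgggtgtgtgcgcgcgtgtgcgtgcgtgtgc
Pcsk2, chr2:143546013-143546132, plus strand: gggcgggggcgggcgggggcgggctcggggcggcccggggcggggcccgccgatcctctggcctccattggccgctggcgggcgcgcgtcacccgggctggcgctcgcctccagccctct
The first base of the full element lay 72 bases before the RefSeq start of Chgb, 68 before that of Scg2 and 78 before that of Pcsk1. The core in Chga lay 44 bases before its RefSeq start. These starts differ from the ends of the gene spans given above, which are those of GENCODE. The whole Chgb stretch and the full element of Scg2 fall inside the GENCODE spans, as does part of the Pcsk1 stretch. Pcsk1 held a further TGACGT on its plus strand, 50 bases before the start.

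Depth differed between libraries, and the level of insulin message did too. Steps between the values of genes with 1 annotated transcript put the assigned fragments at 244735 for WT replicate 1 and at 780504 to 1920397 for the remaining 5. WT replicate 1 and KO replicate 2 held little insulin message, with Ins1 at 647 and 416 FPKM against 65360 to 119077 FPKM in the other 4, and are called the insulin-poor libraries below. Genes of the mitochondrial genome made up 44.8% and 50.9% of the FPKM sum there and 16.5% to 26.5% elsewhere. Rptor was 0.80 and 1.06 FPKM in the WT libraries, 0.38 and 1.51 FPKM in those of KO and 0.71 and 1.93 FPKM with Dnmt3a added. Dnmt3a was 2.94 and 4.43 FPKM, 3.19 and 2.5 FPKM, and 3.62 and 3.80 FPKM in the same order. KO replicate 2 held more Rptor than either WT library, so the whole-gene level does not bear out the KO label. All these Rptor values are low for the depth. On a transcript of 2 kb, a single fragment counts for 2.04 FPKM at the depth of WT replicate 1 and for 0.64 FPKM at that of KO replicate 2. The fragments behind the Rptor values were not worked out and may be few, so their order cannot decide the label either way. Each direction below is that of the libraries labelled so. Both KO+DNMT3A libraries held more Dnmt3a than both KO libraries, the direction of the label, though neither exceeded WT replicate 2. Of all genes tested, 17.2% were likewise higher in both KO+DNMT3A libraries than in both KO libraries, so this order does not by itself bear out the label. In whole islets, fewer cells of a type and less RNA per cell cannot be told apart.

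The 10 members together took 0.239% of the summed FPKM in WT replicate 1 and 0.373% in KO replicate 2. They took 1.55% in WT replicate 2, 1.86% in KO replicate 1, and 2.04% and 1.69% in KO+DNMT3A replicates 1 and 2. Part of the summed FPKM goes to mitochondrial, rRNA-associated, insulin and amylin genes. With those left out of the total, the shares were 0.603% and 0.916% in the insulin-poor libraries and 3.78% to 4.58% in the other 4. The gap between the insulin-poor and the other libraries is thus present with either total.

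Among the granins, chromogranin A was the most abundant by its mean over the libraries. Chga was 239 and 3590 FPKM in the WT libraries, 3094 and 279 FPKM in those of KO and 2953 and 2501 FPKM with Dnmt3a added, each pair in the order of the replicates. Its level was thus much the same in 4 libraries, within 1.44 times, and far lower in the insulin-poor pair. Chgb, chromogranin B, was 71.6 and 1208 FPKM in the WT libraries, 2626 and 166 FPKM in those of KO and 4083 and 1556 FPKM with Dnmt3a added. Unlike Chga it also varied 3.38 times among the 4 insulin-rich libraries, with KO+DNMT3A replicate 1 highest.

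Scg2, secretogranin II, the precursor of secretoneurin, was 9.30 and 425 FPKM in the WT libraries, 735 and 37.4 FPKM in those of KO and 749 and 182 FPKM with Dnmt3a added. Its highest and lowest libraries were 80.5 times apart, the widest range of the 8 members that were above 0 in every library, but its WT replicate 1 value rests on 5.7 fragments. Without that library Scg2 spanned 20.02 times and Chgb 24.5 times. Scg3, secretogranin III, which tethers chromogranin A to the granule membrane, was 52.7 and 387 FPKM in the WT libraries, 446 and 92.9 FPKM in those of KO and 344 and 307 FPKM with Dnmt3a added. Scg3 followed the order of Chga closely but over a narrower range, 8.47 times against 15.03 times. Vgf, a granin-like precursor of several peptides, was nearly absent: it was listed at 0 and was 6.49 FPKM in the WT libraries, 6.10 and 1.75 FPKM in those of KO and 0.71 and 5.65 FPKM with Dnmt3a added. With the longest transcript taken as the length, the Vgf values rest on 0 to 24.7 fragments, and 3 fragments would be worth 4.33 FPKM in WT replicate 1, so its differences are hardly measured.

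**Figure D1:**
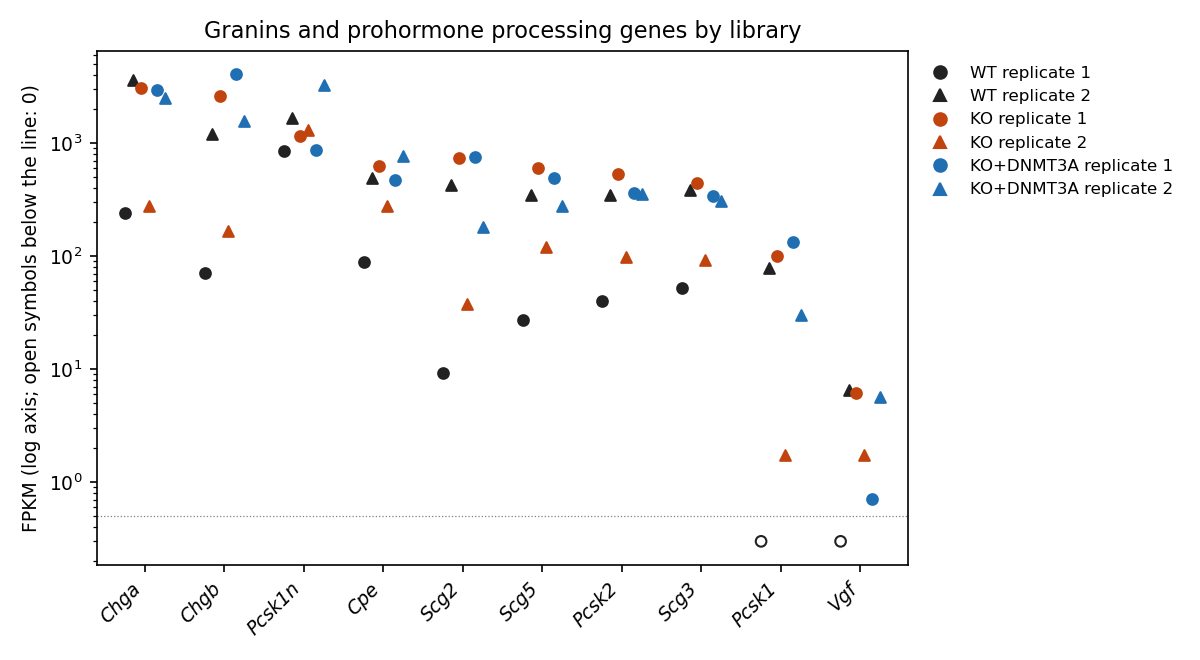
FPKM of the 10 members (horizontal axis, ordered by mean) in the 6 libraries on a log axis; colours mark the groups, circles replicate 1 and triangles replicate 2, and open symbols under the dotted line stand for values listed at 0. WT replicate 1 and KO replicate 2 lie below the other 4 libraries for 8 of the 10 members, and Pcsk1n and Vgf are the exceptions.

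The convertases differed from one another in how far they varied. Pcsk2 was 39.8 and 345 FPKM in the WT libraries, 535 and 98.6 FPKM in those of KO and 361 and 356 FPKM with Dnmt3a added. In the 4 insulin-rich libraries it stayed within 1.55 times. Pcsk1 was listed at 0 and was 79.2 FPKM in the WT libraries, 101 and 1.75 FPKM in those of KO and 133 and 30.1 FPKM with Dnmt3a added. With the longest transcript as the length, 3 fragments of Pcsk1 would be worth 2.43 FPKM in WT replicate 1, and the KO replicate 2 value rests on 6.9 fragments, so both insulin-poor libraries lie near the limit of detection. Pcsk1 also varied 4.41 times among the insulin-rich libraries, more than Pcsk2. Cpe was 88.1 and 487 FPKM in the WT libraries, 629 and 278 FPKM in those of KO and 477 and 764 FPKM with Dnmt3a added. The KO replicate 2 value of Cpe lay well above that of WT replicate 1, so the insulin-poor libraries were not alike for this enzyme.

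The genes of the convertase-binding proteins differed in pattern. Scg5, the PC2 chaperone gene, was 27.2 and 344 FPKM in the WT libraries, 599.6 and 119.5 FPKM in those of KO and 491 and 280.2 FPKM with Dnmt3a added. Its low values are those of the insulin-poor libraries, as for Pcsk2. Pcsk1n was 846 and 1676 FPKM in the WT libraries, 1161 and 1309 FPKM in those of KO and 867 and 3282 FPKM with Dnmt3a added. The insulin-poor libraries were not lower as a pair here: KO replicate 2 exceeded KO replicate 1 and KO+DNMT3A replicate 1. Pcsk1n was within 3.88 times over all 6 libraries, the narrowest range of the 8 members above 0 throughout.

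By mean over the 6 libraries the order of levels was Chga (2109 FPKM), Chgb (1619), Pcsk1n (1523), Cpe (454), Scg2 (356), Scg5 (310.4), Pcsk2 (289), Scg3 (272), Pcsk1 (57.5) and Vgf (3.45 FPKM). The ranges of neighbours in this order overlap, except that Pcsk1n (846 to 3282 FPKM) lay wholly above Cpe (88.1 to 764 FPKM). Pcsk1 and Vgf were the lowest 2 of the 10 in each of the 6 libraries. Within single libraries the leading member changed: Pcsk1n led in WT replicate 1, KO replicate 2 and KO+DNMT3A replicate 2, Chga in WT replicate 2 and KO replicate 1, and Chgb in KO+DNMT3A replicate 1. Pcsk1n took 61.6% and 54.9% of the members' FPKM in the insulin-poor libraries and 8.29% to 35.4% in the other 4.

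For all 10 members, and in each comparison between groups, the libraries of at least 1 group differed from each other by more than the groups did. The share over all genes was not computed, so this is not read as particular to the members. In WT and KO the insulin-poor library was subtracted from the other, so the sign there was set by Ins1. In KO+DNMT3A replicate 2 was subtracted from replicate 1, and Ins1 was lower in replicate 1 (-0.62). On the log2(FPKM + 1) scale, WT replicate 2 exceeded WT replicate 1 by a median of 3.35 over the members, from 0.99 for Pcsk1n to 6.33 for Pcsk1, beside a median of 0.38 over all 13233 genes. A difference above 1 was found for 9 of the 10 members and for 30.7% of all genes. In KO, replicate 1 exceeded replicate 2 by a median of 2.37, from -0.17 for Pcsk1n to 5.21 for Pcsk1, beside 0.21 over all genes. Here 9 of 10 members and 22.8% of all genes were above 1. In KO+DNMT3A, where both libraries are insulin-rich, replicate 1 minus replicate 2 had a median of 0.20 beside 0.09 over all genes, and 3 of 10 members and 15.8% of genes were above 1.

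Those 3 members were Pcsk1 (2.11), Scg2 (2.03) and Chgb (1.39), the genes with the full TGACGTCA printed above. They had the largest differences in WT (6.33, 5.37 and 4.06) and in KO (5.21, 4.26 and 3.97). The 5 members whose window lacked the full element lay between 0.99 and 3.90 in WT, between -0.17 and 3.47 in KO, and between -1.92 and 0.81 in KO+DNMT3A. Over all tested genes the element made little difference to this measure. The 352 genes with it had medians of 0.43, 0.24 and 0.16 in the same order of groups, and those without it had 0.37, 0.24 and 0.12. This coincidence among 8 genes was noticed after the values were seen and carries no test. In KO+DNMT3A, Vgf (-1.96), Pcsk1n (-1.92) and Cpe (-0.68) were higher in replicate 2, and Vgf and Pcsk1n differed by more in size than Chgb.

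**Figure D2:**
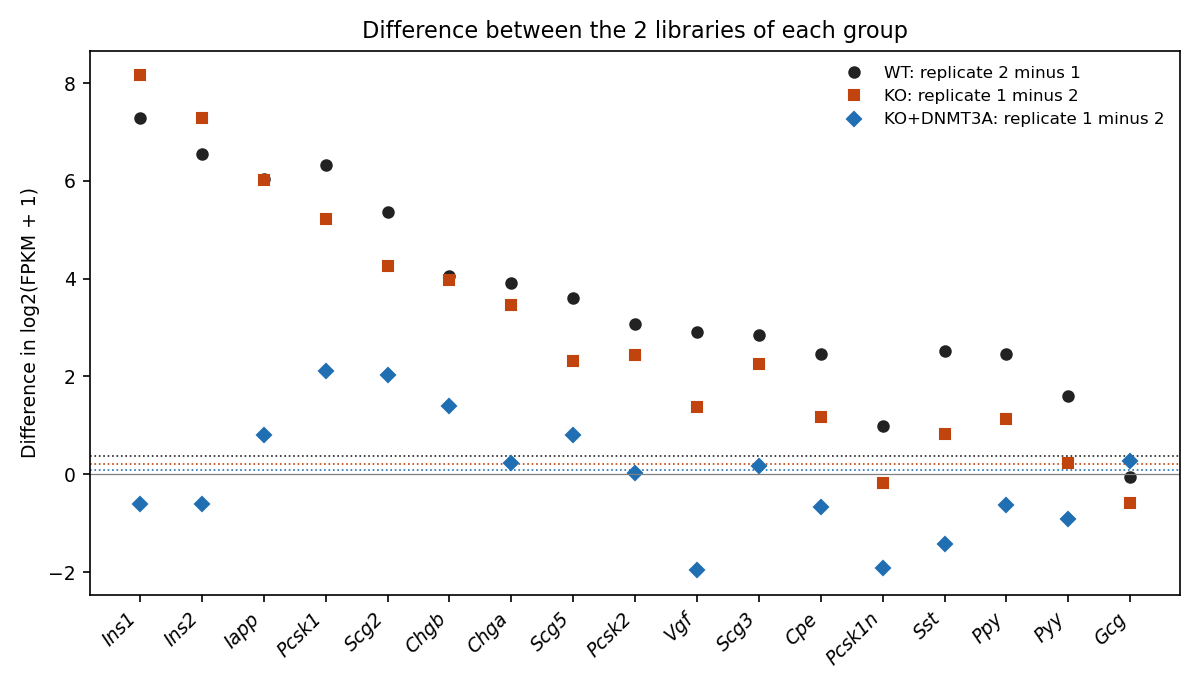
Difference in log2(FPKM + 1) between the 2 libraries of WT (replicate 2 minus 1), KO (replicate 1 minus 2) and KO+DNMT3A (replicate 1 minus 2), for the 10 members and 7 hormone genes; dotted lines mark the median over all 13233 genes of each group. Ins1 and Ins2 differ most in WT and KO, Pcsk1 (6.33 and 5.21) comes close to Iapp (6.03 and 6.02), and Pcsk1n and Gcg lie near 0 in KO.

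Insulin genes differed more than every granin and enzyme gene with a ratio in this contrast. Ins1 was 155.6 times higher in WT replicate 2 than in WT replicate 1, Ins2 93.6 times and Iapp 65.6 times, while Scg2 was 45.7, Chgb 16.9, Chga 15.03, Scg5 12.7, Pcsk2 8.66, Scg3 7.34, Cpe 5.53 and Pcsk1n 1.98 times higher. For the KO libraries the ratios were 286, 158 and 65.0 for the same hormone genes, against 57.7 for Pcsk1, 19.7 for Scg2, 15.8 for Chgb, 11.1 for Chga, 5.43 for Pcsk2, 5.02 for Scg5, 4.81 for Scg3 and 2.26 for Cpe. Hormone genes of other islet cells differed less: Gcg, glucagon, was 0.96 and 0.66 times, Pyy 3.04 and 1.18 times, Ppy 5.53 and 2.19 times and Sst 5.77 and 1.78 times. Cpe and Ppy thus had almost the same ratio in both groups. Ucn3, urocortin 3, a beta and delta cell hormone gene, was 5.53 and 20.8 FPKM in the insulin-poor libraries and 119 to 337 FPKM in the others. Relative to the enzymes there was far less insulin message in the insulin-poor libraries. These libraries were named by their low Ins1, so the direction here and in the insulin ratios above was partly fixed in advance. Summed Ins1 and Ins2 was 7.65 and 1.83 times the summed Pcsk1, Pcsk2 and Cpe there and 87.1 to 145 times in the other 4. The sum of Gcg, Sst, Ppy and Pyy was 26.4 and 43.1 times that of the enzymes in the insulin-poor libraries and 13.0 to 27.0 times elsewhere.

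Ratios between members, which need no scaling between libraries, differed widely in how far they varied. Scg5 over Pcsk2, the chaperone over its partner, was 0.68 and 0.998 in WT, 1.12 and 1.21 in KO, and 1.36 and 0.79 in KO+DNMT3A. It thus stayed near parity in all 6 libraries, while Pcsk2 varied 13.4 times and Scg5 22.03 times. The 0.68 rests on 8.0 fragments of Scg5, with the longest transcript as the length. Closeness to Pcsk2 was not particular to Scg5: in the profiles compared further on, Scg3 lay nearer to Pcsk2 (0.23) than Scg5 did (0.34). Pcsk1 over Pcsk2 was 0 and 0.23 in WT, 0.19 and 0.018 in KO, and 0.37 and 0.084 in KO+DNMT3A. The Pcsk1 message was therefore the lesser of the pair in every library and lowest in the insulin-poor ones. Pcsk1n over Pcsk2 was 21.2 and 4.86 in WT, 2.17 and 13.3 in KO, and 2.40 and 9.21 in KO+DNMT3A. This ratio thus differed between the KO+DNMT3A libraries also, although both are insulin-rich.

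**Figure D3:**
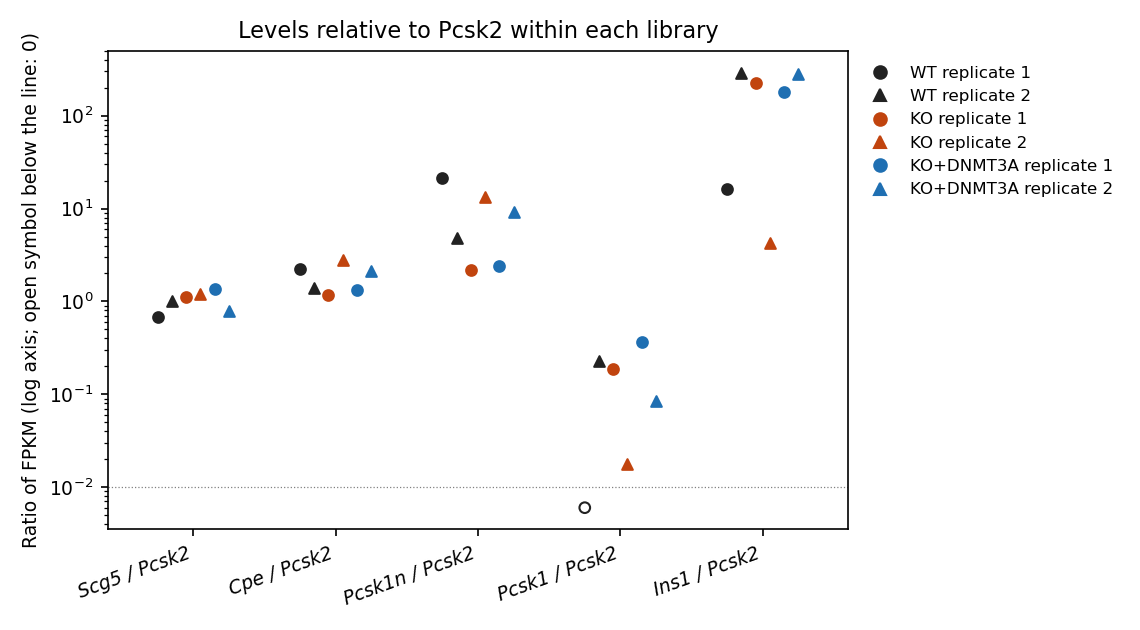
Ratio of the FPKM of Scg5, Cpe, Pcsk1n, Pcsk1 and Ins1 to that of Pcsk2 in each library, on a log axis; the open circle under the dotted line is the WT replicate 1 library, where Pcsk1 was listed at 0. Scg5 stays between 0.68 and 1.36 times Pcsk2, while Ins1 is 181 to 292 times Pcsk2 in 4 libraries and 16.3 and 4.22 times in the other 2.

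Chga over Chgb was 3.34 and 2.97 in WT, 1.18 and 1.68 in KO, and 0.72 and 1.61 in KO+DNMT3A. Both WT libraries lay above all 4 others, the insulin-poor WT library included. On the log2(FPKM + 1) scale the ratio was 1.16 lower in KO and 1.54 lower in KO+DNMT3A than in WT (a difference of -1.16 and -1.54), with an exact two-sided permutation p of 0.333 for each, the smallest that 2 libraries against 2 can give. Of the 45 ratios among the 10 members, 7 (15.6%) did not overlap between KO and WT, 8 (17.8%) between KO+DNMT3A and KO and 9 (20%) between KO+DNMT3A and WT. Chga over Chgb is 1 of these in both comparisons with WT, was chosen after the values were seen, and cannot pass a threshold in this design, so nothing particular to it is read from the lack of overlap.

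KO was compared with WT, which addresses how the loss of Raptor from beta cells bears on the messages of the secretory granule. No granin, enzyme or binding protein gene passed. All 10 had a higher mean log2 value in KO, as did 52.4% of all genes, with a median of 0.93 beside 0.03 over all genes. Pcsk1n (-0.37) turned lower with quantile normalization, and Chga (-0.062) and Pcsk1n (-0.017) with rescaling that leaves out mitochondrial, rRNA-associated, insulin and amylin genes. By limma on all 13233 genes 0% were called at an adjusted p of 0.05, and 0 of 10 members were (adjusted p = 1 for each). Scg5 had the smallest unadjusted p among them: 360 ± 339 FPKM in KO against 186 ± 224 FPKM in WT (SD, n = 2), a log2 fold change of 1.45 (SE 1.24, limma adjusted p = 1). Chga was 1687 ± 1991 FPKM against 1914 ± 2370 FPKM, with a log2 fold change of 0.005 (SE 1.47). Pcsk2 differed by 0.96 (SE 1.14), Cpe by 1.01 (SE 0.92) and Pcsk1 by 0.90 (SE 2.22).

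For none of the 10 members were the KO and WT libraries apart without overlap, where 9.36% of all genes were higher and 10.5% lower without overlap. The 95% intervals were wide, from -3.41 to 3.42 for Chga and from -1.90 to 1.995 for Pcsk1n, so a log2 change of 1 in either direction lay inside the interval of each member. By unadjusted limma p, 240 genes and 0 members were under 0.05. Without WT replicate 1 the members' median was -0.81, without KO replicate 1 it was -0.44, without WT replicate 2 it was 2.37 and without KO replicate 2 it was 1.96, so the sign rested on the insulin-poor WT library and on KO replicate 1. Without both insulin-poor libraries, which leaves 1 library in each group, the median was 0.36.

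KO+DNMT3A was compared with KO, the question being whether added Dnmt3a alters the transcriptome of these islets. Again no member passed (limma adjusted p = 1 for each; 0% of all genes called). Mean log2 values were higher in KO+DNMT3A for 9 of 10 members and for 68.2% of all genes. Vgf was the exception among the members at -0.39 (SE 1.08). The median was 0.65 beside 0.19 over all genes, and 0.39 beside -0.002 when each library was scaled to the same median. Chgb had the smallest unadjusted p, at 2819 ± 1787 FPKM against 1396 ± 1739 FPKM (SD, n = 2) and a log2 fold change of 1.93 (SE 1.61, limma adjusted p = 1). Pcsk1 was 81.5 ± 72.7 FPKM against 51.4 ± 70.2 FPKM, with a log2 fold change of 1.94 (SE 2.22).

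The groups overlapped for all 10 members, where 17.2% of all genes were higher and 5.43% lower without overlap. For 8 members the higher mean rested on KO replicate 2. Without that library, Chga was -0.19, Chgb -0.059, Scg2 -0.99, Scg3 -0.46, Pcsk1 -0.66, Pcsk2 -0.58, Cpe -0.059 and Scg5 -0.69, and the median was -0.52. This comparison and the one before share the KO libraries, so their signs are not independent of each other.

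KO+DNMT3A was also compared with WT. All 10 members had a higher mean log2 value in KO+DNMT3A, as did 64.8% of all genes. The members' median was 1.57 beside 0.23 over all genes, though Vgf (-0.23) and Pcsk1n (-0.022) turned lower with quantile normalization. By mean FPKM, Vgf was lower, at 3.18 in KO+DNMT3A against 3.24 in WT. No member passed (limma adjusted p from 0.997 to 0.9974, with 0% of all genes called). Chgb was 2819 ± 1787 FPKM against 640 ± 804 FPKM (SD, n = 2), with a log2 fold change of 3.09 (SE 1.61, limma adjusted p = 0.997). Its 95% interval ran from -0.64 to 6.82. Pcsk2 was 359 ± 3.09 FPKM against 192 ± 216 FPKM, a log2 fold change of 1.60 (SE 1.14).

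Chgb and Pcsk2 were higher in both KO+DNMT3A libraries than in both WT libraries, 2 of 10 members, where 19.2% of all genes were higher without overlap and 7.87% lower. The share of members is close to that background. For Pcsk2 the margin was small, 356 FPKM in the lower KO+DNMT3A library against 345 FPKM in WT replicate 2. Without WT replicate 1 the members' median was -0.10, and 5 of the 10 turned lower. The other 5 were Chgb (1.06), Cpe (0.31), Scg5 (0.11), Pcsk2 (0.055) and Pcsk1n (0.0089). For Chgb that is a difference from 1208 FPKM in WT replicate 2 to 1556 and 4083 FPKM in KO+DNMT3A.

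**Figure D4:**
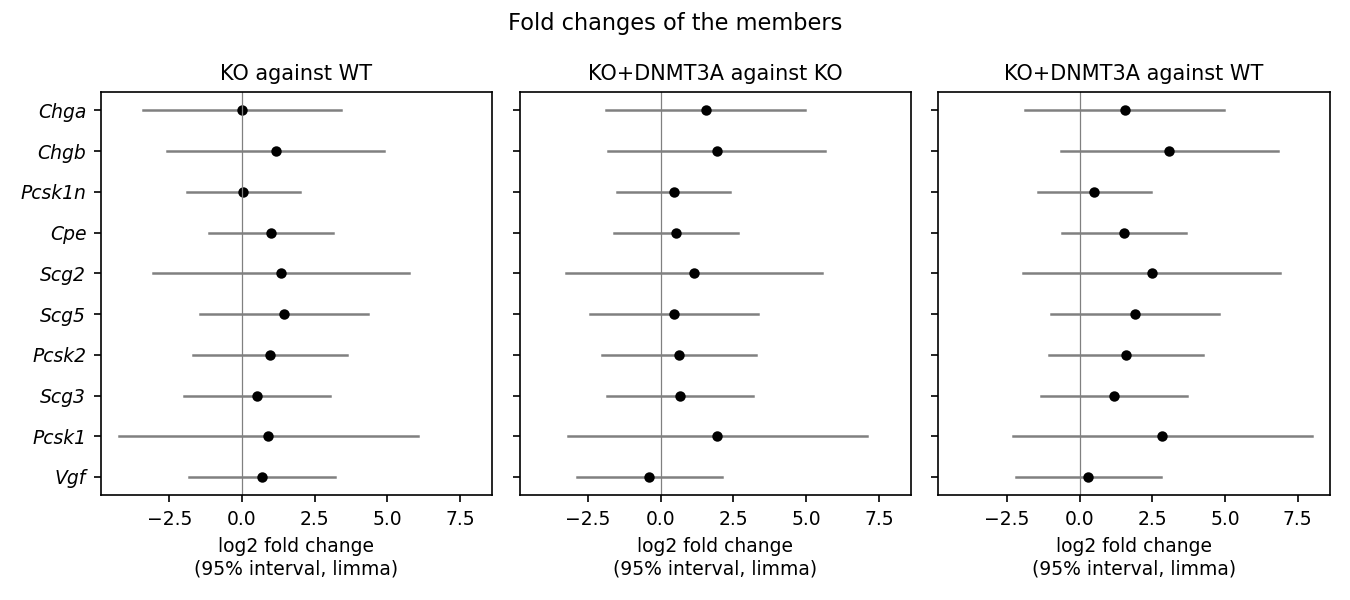
Log2 fold change of each member (points, log2(FPKM + 1) scale) with its 95% limma interval (lines) in the 3 comparisons, members ordered by mean level. Every interval includes 0, and those of Pcsk1 and Scg2 are the widest.

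Other genes of the granule and of prohormone processing were read from lists of 8, 7 and 6 genes. Of the 8 granule genes, 7 were lower in both insulin-poor libraries than in all 4 others, as were 8 of the 10 members and 24.9% of all genes. Resp18, which encodes a protein of the granule lumen, was 57.2 and 358 FPKM in the WT libraries, 868 and 138 FPKM in those of KO and 527 and 516 FPKM with Dnmt3a added, which is the same order of libraries as Pcsk2 had at the top and bottom. Ptprn, which encodes the granule membrane protein IA-2, was 27.0 and 142 FPKM, 94.7 and 54.7 FPKM, and 102 and 162 FPKM in the same groups. Nucb2, the nesfatin precursor gene, was 8.65 and 16.5 FPKM in the insulin-poor libraries and 51.0 to 149 FPKM in the others, and Ica1, an islet autoantigen gene of the granule pathway, 7.62 and 12.3 FPKM against 19.6 to 23.4 FPKM. None of the 8 was called in any comparison. All 8 had a higher mean log2 value in KO+DNMT3A than in KO (median 0.56) and than in WT (0.88), and 6 of 8 were higher in KO than in WT (0.22).

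The general trimming and modifying enzymes followed this pattern less. Of the 6 that were tested, 1 was lower in both insulin-poor libraries. Pam, the enzyme that amidates peptide ends, was 6.21 and 60.5 FPKM in the WT libraries, 7.46 and 20.7 FPKM in those of KO and 59.2 and 78.0 FPKM with Dnmt3a added. KO replicate 1, which was insulin-rich, thus held about as little Pam as WT replicate 1, unlike every granin. Carboxypeptidase D, Cpd, a relative of Cpe that works in the trans-Golgi, was 4.11 to 9.91 FPKM over all 6 libraries. Ctsl, cathepsin L, was 108 and 149 FPKM in the WT libraries, 212 and 33.8 FPKM in those of KO and 262 and 68.1 FPKM with Dnmt3a added. Mean log2 values were lower in KO than in WT for 4 of the 6 (median -0.41). They were higher in KO+DNMT3A for 5 of 6 in both of its comparisons (medians 0.58 and 0.14). None was called.

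Other proprotein convertases were low. Furin was 0.66 to 2.73 FPKM, Pcsk7 1.90 to 6.48 FPKM, Pcsk4 5.50 to 22.1 FPKM and Mbtps1, which encodes the site-1 protease, 9.35 to 22.5 FPKM. Each stayed under the level of Pcsk2 in all 6 libraries, but each exceeded Pcsk1 in the insulin-poor libraries, where Pcsk1 was 0 and 1.75 FPKM. Of the 5 tested, 1 was lower in both insulin-poor libraries, and 0 were called. The list had a median of -0.056 for KO against WT and of 0.30 and 0.058 for KO+DNMT3A against KO and WT.

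**Figure D5:**
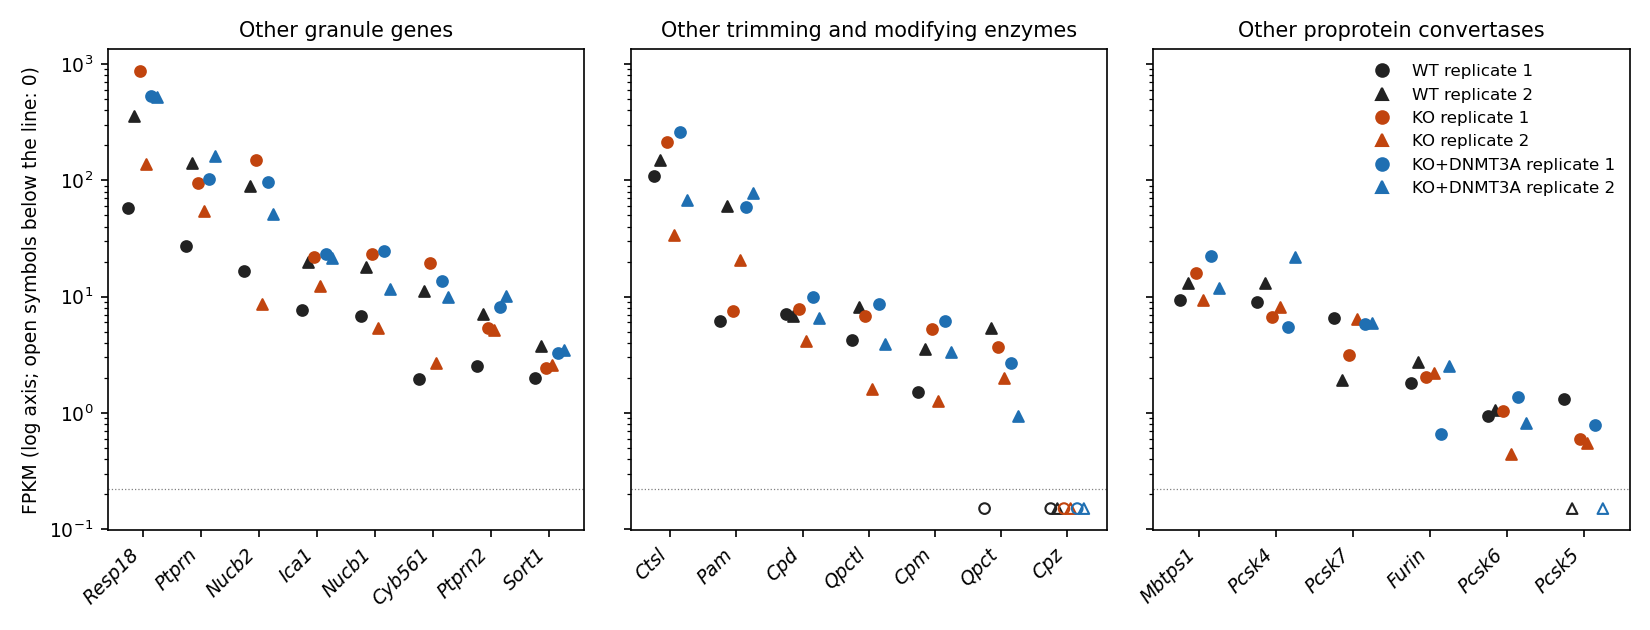
FPKM on a log axis of 8 other granule genes, 7 other trimming and modifying enzymes and 6 other proprotein convertases in the 6 libraries, marked as in the plot of the members; open symbols under the dotted line are values listed at 0. Most granule genes are lowest in WT replicate 1 and KO replicate 2, whereas the convertases are low throughout and mixed in order.

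Regulator genes were read from a list of 12, which held endocrine transcription factors together with Rest and factors of cyclic AMP signalling. Of these 12 regulators tested, 4 (33.3%) were lower in both insulin-poor libraries than in all others, beside 24.9% of all genes. Neurod1 and Rfx6 were among the 4, and Nkx2-2 and Isl1 were not. Neurod1, an endocrine regulator, was 47.9 and 123 FPKM in the WT libraries, 169 and 67.1 FPKM in those of KO and 205 and 179 FPKM with Dnmt3a added. Nkx2-2 was 10.5 and 33.9 FPKM in the insulin-poor libraries and 33.7 to 73.6 FPKM in the others, Isl1 9.85 and 32.6 against 25.9 to 39.6 FPKM, and Rfx6 8.94 and 10.9 against 17.0 to 22.7 FPKM. The median over the 12 was 0.50 for KO against WT, 0.28 for KO+DNMT3A against KO and 0.81 for KO+DNMT3A against WT, with 0 called. Rest, which encodes a repressor of granin genes outside neuroendocrine cells, was 0.68 to 2.16 FPKM in all libraries.

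Markers of other cells were read beside the members. All 10 beta cell markers were lower in both insulin-poor libraries than in all 4 others, as were 24.9% of all genes. These libraries were named by their low Ins1, which is 1 of the 10 markers, so the count was partly fixed in advance. Alpha cell markers summed to 1432 and 2613 FPKM in the insulin-poor libraries and 1593 to 2165 FPKM elsewhere, with 1 of 7 lower in both. Delta cell markers summed to 466 and 2801 FPKM there against 2595 to 10940 FPKM, and pancreatic polypeptide and epsilon cell markers to 1689 and 11117 FPKM against 8066 to 21561 FPKM. Pcsk1n and Sst were both highest in KO+DNMT3A replicate 2, at 3282 and 10846 FPKM. Stromal markers summed to 1041 FPKM in WT replicate 1 and 141 to 333 FPKM in the other 5, and duct markers to 1809 FPKM in WT replicate 1, 890 FPKM in KO+DNMT3A replicate 1 and 85.1 to 180 FPKM in the rest. Nerve markers, whose cells also hold granins, summed to 60.8 FPKM in KO replicate 2 and 17.1 to 36.2 FPKM elsewhere, and of 8 such genes 4 were at 0 in WT replicate 1. Schwann cell markers summed to 80.4 FPKM in KO replicate 2 and 12.4 to 31.1 FPKM elsewhere. Macrophage markers were lowest with Dnmt3a added: they summed to 216 and 144 FPKM in the KO+DNMT3A libraries and 310 to 508 FPKM in the other 4. The mean log2 values of 8 of 8 were lower there than in KO (median -1.06) and than in WT (-1.72), with 0 called. Of the members, 9 of 10 had a higher mean log2 value in KO+DNMT3A than in KO, and all 10 than in WT. Endothelial markers summed to 36.1 and 23.6 FPKM in the insulin-poor libraries against 19.97 to 52.3 FPKM. Of 8 acinar genes 6 were at 0 in every library. The part of these differences in the members' values was not tested.

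Likeness to the members was measured as the root mean square difference between centred log2(FPKM + 1) profiles over the 6 libraries, against the members' mean profile, among 2793 genes with a mean of at least 10 FPKM. The nearest genes outside the set were Tspan13 (0.16), Nipal1 (0.16), Ddc (0.21), Fam174b (0.21), Papss2 (0.25) and 1500009L16Rik (0.28). Tspan13, a tetraspanin gene, was 4.35 and 79.1 FPKM in the WT libraries, 99.4 and 13.6 FPKM in those of KO and 83.0 and 54.3 FPKM with Dnmt3a added. Ddc, aromatic amino acid decarboxylase, was 1.53 and 26.5 FPKM, 41.0 and 5.02 FPKM, and 41.6 and 23.4 FPKM in the same groups. Among the members Pcsk2 was closest to the mean profile (0.19), followed by Scg3 (0.32), Scg5 (0.33) and Chga (0.44), and Pcsk1n (1.35) and Pcsk1 (1.33) were farthest, on opposite sides. The closest pair of members was Pcsk2 and Scg3 (0.23) and the most distant was Pcsk1 and Pcsk1n (2.66). Scg2 and Pcsk1 were nearest to each other (0.51), and Chgb was nearest to Scg2 (0.55). With 6 libraries, of which 2 set most of each profile, these values describe the libraries only.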

How the data were processed

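The deposited values are FPKM, 1 column per library, as named per the file headers. The submitters' processing notes list mm10 as the build and edgeR, StringTie 1.3.0 and HISAT2 2.0.4 as tools, without role or order. RNA was poly-A selected for TruSeq libraries, per the labels' protocols. Identifiers were matched to GENCODE M21 for symbols, lengths and positions, and promoters came from RefSeq. Fragment totals were inferred from single-transcript genes: of their low values (at most 20 fragments), 84.3% to 91.7% were multiples of 1 fragment to within 0.01. Such depths cover counting error only. Values were taken as log2(FPKM + 1), on which fold changes of low genes are understated. Genes reaching 1 FPKM in 2 or more libraries entered 1 limma fit of all 6 libraries (limma 3.58.1, R 4.3.3, trend and robust steps, Benjamini-Hochberg adjustment over 13233 genes, threshold 0.05, two-sided). The fit was tested on simulated data. The text names the members, hormone genes reaching 100 FPKM, up to 4 genes of highest mean per list and the 6 genes nearest in profile; Furin and Rest were named after their values were seen. A gene of the convertase list is not reported here and was left out of its counts. Members and lists were chosen with earlier results of these data known. Alternatives varied the pseudocount (0.1), the filter (none, or 5 FPKM), the normalization, the trend step, the groups fitted, the replicate block and the libraries; leaving out both insulin-poor libraries and crossing the blocks were added after seeing the data. Tables and figures were made in Python 3.11.15 (matplotlib 3.10.9, pandas 2.3.3, scipy 1.17.1, numpy 2.4.6).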

Additional observations from a re-analysis of the deposited data

How the results depend on the processing

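No gene of the table and no member was called by limma under any alternative (0 in each), and the smallest adjusted p over them was 0.1311, for KO+DNMT3A against WT without WT replicate 2. With the pseudocount of 0.1, either filter, median scaling, no trend, only the groups compared, or either block, the members kept their directions, but the pseudocount of 0.1 moved KO against WT from 0.90 to 2.28 for Pcsk1 and from 0.69 to 2.06 for Vgf, KO+DNMT3A against WT from 2.85 to 4.49 for Pcsk1 and from 0.30 to 1.41 for Vgf, and KO+DNMT3A against KO from -0.39 to -0.65 for Vgf. Median scaling moved the median of all genes from 0.19 to -0.002 for KO+DNMT3A against KO and from 0.23 to 0.04 for KO+DNMT3A against WT; the members' medians were then 0.39 and 1.31. Quantile normalization gave the opposite sign for Pcsk1n in KO against WT (-0.37) and for Vgf (-0.23) and Pcsk1n (-0.022) in KO+DNMT3A against WT. Rescaling did so for Chga (-0.062) and Pcsk1n (-0.017) in KO against WT. Without both insulin-poor libraries, KO against WT was -0.21 for Chga, -0.075 for Vgf and -0.53 for Pcsk1n. On the same libraries, KO+DNMT3A against KO was -0.19 for Chga, -0.059 for Chgb, -0.99 for Scg2, -0.46 for Scg3, -0.66 for Pcsk1, -0.58 for Pcsk2, -0.059 for Cpe and -0.69 for Scg5. KO+DNMT3A against WT was then -0.40 for Chga, -0.20 for Scg2, -0.25 for Scg3, -1.15 for Vgf and -0.31 for Pcsk1, with a members' median of -0.10. Leaving out 1 library at a time, where a group left with 1 library is assumed to vary like the others, gave wide ranges. In KO against WT they were -1.95 to 1.96 for Chga, -0.87 to 3.19 for Chgb, -1.34 to 4.03 for Scg2, -0.92 to 1.93 for Scg3, -0.76 to 2.14 for Vgf, -2.26 to 4.07 for Pcsk1, -0.58 to 2.5 for Pcsk2, -0.22 to 2.23 for Cpe, -0.36 to 3.25 for Scg5 and -0.44 to 0.54 for Pcsk1n, and -0.81 to 2.37 for the members' median. In KO+DNMT3A against KO they were -0.19 to 3.28 for Chga, -0.059 to 3.91 for Chgb, -0.99 to 3.27 for Scg2, -0.46 to 1.80 for Scg3, -1.37 to 0.59 for Vgf, -0.66 to 4.55 for Pcsk1, -0.58 to 1.85 for Pcsk2, -0.059 to 1.11 for Cpe, -0.69 to 1.63 for Scg5 and -0.51 to 1.41 for Pcsk1n. In KO+DNMT3A against WT they were -0.40 to 3.50 for Chga, 1.06 to 5.12 for Chgb, 0.055 to 3.14 for Pcsk2, 0.31 to 2.76 for Cpe, 0.11 to 3.72 for Scg5, -0.20 to 5.17 for Scg2, -0.25 to 2.60 for Scg3, -1.15 to 1.75 for Vgf, -0.31 to 6.01 for Pcsk1 and -0.46 to 1.46 for Pcsk1n, and -0.10 to 3.32 for the members' median. The cause was not tested.

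The replicate numbers share only a number: deviations of replicate 1 correlated at -0.27 between WT and KO, 0.10 between WT and KO+DNMT3A and 0.32 between KO and KO+DNMT3A. With the replicate block 0 genes were called in each comparison, with 285, 154 and 391 at an unadjusted limma p under 0.05 against 240, 147 and 379 without it. With the numbers of WT and KO crossed, 0 were called and 276, 178 and 515 were under 0.05. Depth limits Vgf and Pcsk1 most, both listed at 0 in WT replicate 1.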
